A study of Xiphophorus maculatus with 32 samples.

Results

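WNT5A and ADAMTS2 were followed in the skin of the platyfish *Xiphophorus maculatus* after light exposure. They are 2 of the 20218 transcripts counted, ENSXMAT00000002625 (WNT5A) and ENSXMAT00000008787 (ADAMTS2), and they were chosen by identifier with no threshold on their values. Both names come from the gene panel of the study, and the deposited counts give the identifiers alone. The study's methods describe the panel targets as light responsive in its earlier work, so neither gene was picked without regard to light. The exposed fish received 4100 K "cool white" fluorescent light (FL, 35 kJ/m2), 1 of 6 wavebands of 50 nm or 1 of 5 wavebands of 10 nm, and unexposed fish served as controls. All were mature males of the inbred strain Jp 163 B, 10 to 11 months old, and each exposure is represented by 2 fish. Doses differed between the 50 nm wavebands. Fish exposed to 300–350 nm received 7.3 kJ/m2, those exposed to 350–400 nm received 18.6 kJ/m2, and the longer wavebands carried 21.6 kJ/m2 (400–450 nm), 21.2 kJ/m2 (450–500 nm), 17.4 kJ/m2 (500–550 nm) and 13.8 kJ/m2 (550–600 nm). FL came from lamps in a closed box, whereas the wavebands came from a xenon source through a monochromator, so that light source and spectrum changed together. The study's methods describe controls that were held in the dark in single flasks as well as controls taken without any handling, and the labels do not say which of these the control libraries are. Sham-treated fish were not analysed here.

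Sequencing depth ran from 12835091 to 41221463 counts over 28 distinct libraries (median 16067180). The FL controls were identical to the 2 controls of the 50 nm experiment and were counted once, so FL and the 50 nm wavebands share their 2 control fish. The 10 nm wavebands have 2 control fish of their own. With 2 fish in a group, p-values rest on a spread that is estimated across transcripts and groups. Of 24 marker symbols for keratinocytes, dermal fibroblasts, pigment cells, muscle and blood, 1 could be matched to a transcript, the muscle gene MYL2B, so the skin label and the dermal origin of both transcripts could not be checked against fibroblast markers.

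WNT5A is a secreted ligand of the Wnt family. In vertebrates it acts mostly without beta-catenin, through Frizzled receptors and the ROR and RYK co-receptors, and it can signal through G proteins, phospholipase C, calcium and protein kinase C. It is known for its part in planar cell polarity, cell movement and the outgrowth of limbs and fins. ADAMTS2 is an extracellular metalloproteinase that cuts the amino-terminal propeptide from fibrillar procollagens, a step that lets collagen assemble into fibrils, and in humans and cattle its loss gives fragile skin. WNT5A is therefore a signalling ligand rather than a component of the matrix, while ADAMTS2 processes matrix proteins. In bulk skin, fewer cells of a type and less RNA per cell cannot be told apart.

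Both transcripts were counted in every library, with 136 to 1286 counts for WNT5A and 113 to 1261 counts for ADAMTS2. Levels are given in CPM, the counts of a transcript scaled to the size of its library, after TMM normalization of all 28 libraries. Of 16872 transcripts, 35.1% had a higher mean level than WNT5A and 38.2% a higher mean level than ADAMTS2. CPM is not corrected for transcript length, so levels of both transcripts are not compared with each other. Both varied more between fish of a group than the median transcript. The biological coefficient of variation, the spread between replicate fish beyond counting error, was 0.319 for WNT5A and 0.361 for ADAMTS2, against a median of 0.181 over all transcripts.

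WNT5A lay below the controls after 350–400 nm by an amount that passed the test, and its levels after most other wavebands were also below those of the controls without passing it. The ligand had 15.9 and 15.0 CPM in the fish exposed to 350–400 nm, against 34.1 and 42.0 CPM in the controls. Both exposed fish lay well below both controls and differed little from each other. WNT5A averaged 15.4 ± 0.69 CPM after 350–400 nm and 38.0 ± 5.6 CPM in controls (SD, n = 2 each). Its log2 fold change, exposed over control, was -1.34 (SE 0.32, edgeR quasi-likelihood adjusted p = 0.0286). A transcript was called when its adjusted p was below 0.05 and it differed at least 2-fold, and 2.02% of the 16722 transcripts tested were called lower after 350–400 nm. The call did not survive the loss of any 1 of the 4 fish. Without control fish 1, control fish 2, exposed fish 1 or exposed fish 2 the log2 fold change lay between -1.49 and -1.17, with edgeR adjusted p-values between 0.0708 and 0.163. With all 28 libraries in 1 fit the value was -1.30 and the edgeR adjusted p rose to 0.100.

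The neighbouring wavebands gave WNT5A levels between those after 350–400 nm and those in controls. It had 27.3 and 21.1 CPM after 300–350 nm, 21.6 and 22.6 CPM after 400–450 nm, 28.2 and 16.6 CPM after 450–500 nm, and 21.2 and 25.3 CPM after 500–550 nm, against 34.1 and 42.0 CPM in the controls. In these 4 wavebands, as after 350–400 nm, both exposed fish lay below both controls, an arrangement that 27.2% to 31.7% of all transcripts showed in these 5 wavebands. None of the 4 was called, where the share of transcripts called lower was 0.478% (300–350 nm), 1.27% (400–450 nm), 1.78% (450–500 nm) and 2.7% (500–550 nm). Their log2 fold changes were -0.67 (SE 0.31) after 300–350 nm, -0.82 (SE 0.31) after 400–450 nm, -0.80 (SE 0.31) after 450–500 nm and -0.75 (SE 0.31) after 500–550 nm, with edgeR adjusted p-values between 0.123 and 0.248. After 550–600 nm the fish disagreed, with 39.6 and 19.8 CPM against 34.1 and 42.0 CPM in controls, and the log2 fold change was -0.38 (SE 0.31, edgeR adjusted p = 0.434), not called where 3.17% of transcripts were called lower.

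**Figure D1:**
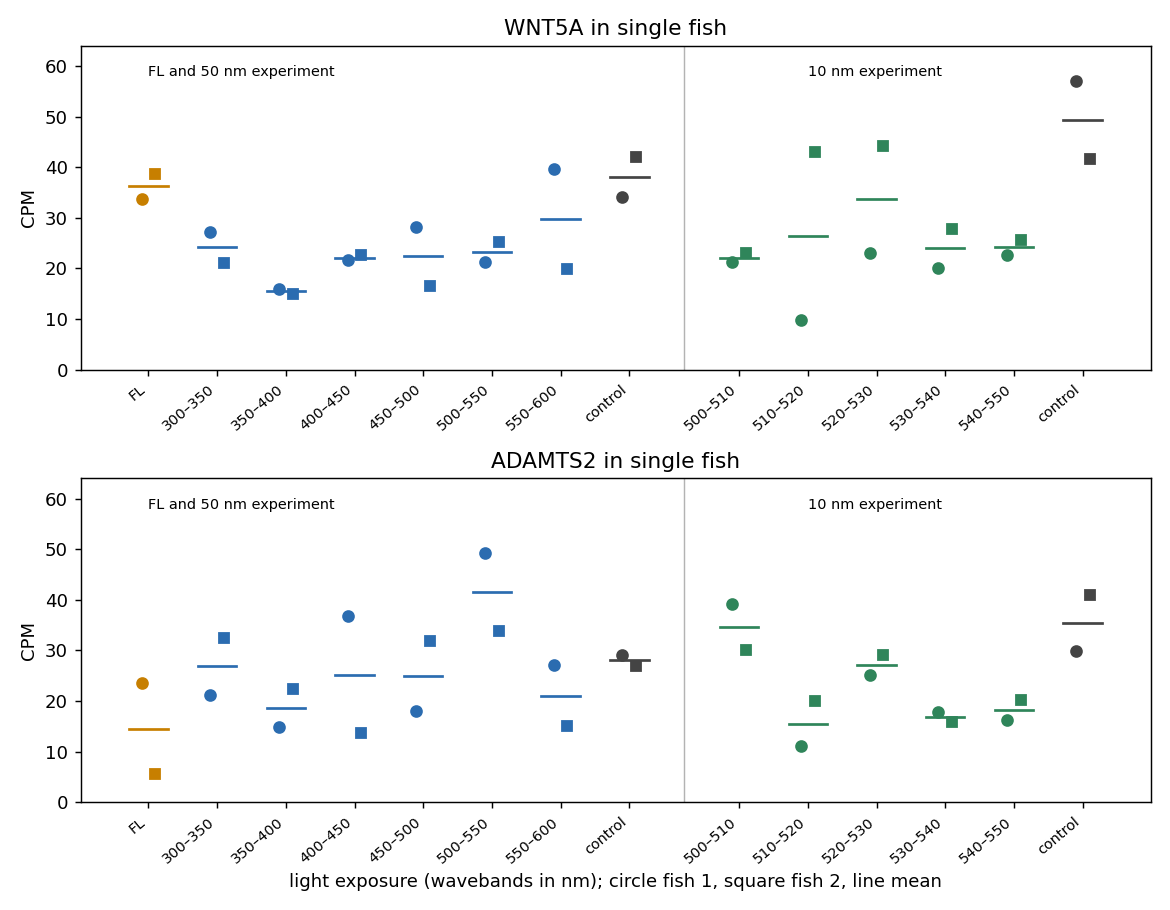
Level of WNT5A (top) and ADAMTS2 (bottom) in single fish, in CPM, by light exposure, with FL and the 50 nm wavebands left of their shared controls and the 10 nm wavebands left of theirs. Circles are fish 1, squares fish 2 and lines the mean of both. WNT5A was lowest as a group after 350–400 nm (15.9 and 15.0 CPM), and ADAMTS2 had its lowest single value, 5.47 CPM, in FL fish 2.

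The 6 wavebands of 50 nm were also set against the controls together. The mean log2 fold change was -0.79 (SE 0.22, 95% interval -1.28 to -0.30, edgeR adjusted p = 0.0318), which is below the 2-fold limit and was therefore not called. Leaving out 1 fish at a time gave -0.94 to -0.63, with edgeR adjusted p-values between 0.00754 and 0.311. For comparison, 2.63% of transcripts were called lower in this contrast. Of the 12 exposed fish, 11 lay below both controls and 1, the fish with 39.6 CPM after 550–600 nm, lay between them. All 12 were set against the same controls, and the share of all transcripts with such a count was not computed. In an exact two-sided permutation test of mean log2 CPM the difference was -0.80 with p = 0.0220, where the 91 possible arrangements allow no p below 0.0110. The wavebands did not differ detectably from each other in WNT5A (edgeR adjusted p = 0.433 for any difference among the 6), and 4.35% of transcripts passed that test. Of the 5 steps between neighbouring wavebands, none was called, and the largest was the step down at 350–400 nm relative to 300–350 nm, with -0.67 (SE 0.32, edgeR adjusted p = 0.483). At that step 0% of transcripts were called lower and 0.0179% higher, at 500–550 nm relative to 450–500 nm 0.885% were called lower and 0.0419% higher, and at the remaining 3 steps 0% were called. The single call at 350–400 nm is thus not shown to differ from the uncalled values beside it.

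FL left WNT5A close to its level in controls. The FL fish had 33.8 and 38.8 CPM, against 34.1 and 42.0 CPM in the same 2 control fish. The groups overlapped, and the log2 fold change was -0.07 (SE 0.19, 95% interval -0.53 to 0.38, edgeR adjusted p = 0.851). The interval leaves out a 2-fold change in either direction, but not the smaller changes that lie within it. No transcript was called after FL in this fit, in which 1401 transcripts were lower and 1374 higher at an unadjusted p below 0.05, whereas DESeq2 called 614 and edgeR's exact test 762. In a comparison chosen after these values were seen, FL minus the mean of the 6 wavebands of 50 nm gave 0.69 for WNT5A (SE 0.33, edgeR adjusted p = 0.134), so that a difference between FL and the wavebands was not established. In that contrast, 3.23% of transcripts were called lower and 2.71% higher after FL.

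The 10 nm wavebands, which divide the 500–550 nm range, also had WNT5A levels below the controls in most fish. The ligand had 21.3 and 23.0 CPM after 500–510 nm, 20.1 and 27.8 CPM after 530–540 nm and 22.7 and 25.6 CPM after 540–550 nm, against 57.0 and 41.7 CPM in the 10 nm controls. Both exposed fish lay below both controls in these 3 wavebands, as they did for 28.4% to 32.4% of all transcripts. The fish of the remaining wavebands were split. WNT5A had 9.87 and 43.1 CPM after 510–520 nm and 23.1 and 44.2 CPM after 520–530 nm, so that fish 2 of each reached the level of the controls while fish 1 did not. The 4.37-fold gap between both fish at 510–520 nm was the widest for WNT5A in any group.

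None of the 5 differences was called. The log2 fold changes of WNT5A were -1.16 (SE 0.55) after 500–510 nm, -0.92 (SE 0.55) after 510–520 nm, -0.57 (SE 0.54) after 520–530 nm, -1.06 (SE 0.55) after 530–540 nm and -1.05 (SE 0.55) after 540–550 nm, with edgeR adjusted p-values between 0.278 and 0.533. In the same fit 0% of transcripts were called in the first 4 wavebands and 0.00611% (1 transcript, higher) after 540–550 nm. At an adjusted p this fit therefore gave almost no calls for any transcript. The spread of all 12 fish enters it, including the split fish at 510–520 and 520–530 nm. In a fit without those 4 fish, chosen after the data were seen, WNT5A was called after 500–510 nm (-1.15, edgeR adjusted p = 0.0162), 530–540 nm (-1.04, edgeR adjusted p = 0.0214) and 540–550 nm (-1.04, edgeR adjusted p = 0.0273). That fit called 653, 789 and 493 transcripts in these 3 wavebands, against 0, 0 and 1 in the fit of all 12 fish. The dropped fish were split in WNT5A itself, so a smaller spread of WNT5A was built in. Its calls in that fit are therefore no support for a light effect. Without fish 2 of 510–520 nm alone, the log2 fold change of WNT5A after 510–520 nm was -2.33, a value that rests on 1 exposed fish. Leaving out each of the 4 exposed and control fish in turn gave -2.33 to -0.22 there.

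Over the 5 wavebands of 10 nm the mean log2 fold change of WNT5A was -0.95 (SE 0.39, 95% interval -1.84 to -0.07, edgeR adjusted p = 0.164), where 0.0122% of transcripts were called lower. Leaving out 1 fish at a time gave -1.23 to -0.72, where -1.23 was the value without fish 2 of 510–520 nm. In the fit without the fish of 510–520 and 520–530 nm, the mean of the remaining 3 wavebands was -1.07. Those fish were dropped after the data were seen, and fish 2 of each had WNT5A at the level of the controls. A lower mean without them was thus built in and is no support for a light effect. Of the 10 exposed fish, 8 lay below both controls. All 10 were set against the same controls, and the share of all transcripts with such a count was not computed. The exact two-sided permutation test gave a difference of -1.02 in mean log2 CPM with p = 0.0909, where 66 arrangements allow no p below 0.0152. No difference among the 5 wavebands was detected (edgeR adjusted p of 1 after rounding, with 0% of transcripts passing). None of the 4 steps between neighbours was called, and 0% of transcripts were called at each of them.

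ADAMTS2 did not share this pattern in the 50 nm experiment, where its values scattered on both sides of the controls and none of 6 differences was called. The share of transcripts called higher was 0.496% (300–350 nm), 1.26% (350–400 nm), 0.795% (400–450 nm), 0.957% (450–500 nm), 1.99% (500–550 nm) and 1.25% (550–600 nm). The procollagen protease had 14.9 and 22.4 CPM after 350–400 nm, against 29.1 and 26.9 CPM in the controls. Both exposed fish lay below both controls, and the log2 fold change was -0.63 (SE 0.47, edgeR adjusted p = 0.402). After 500–550 nm it had 49.3 and 33.8 CPM, against the same 29.1 and 26.9 CPM in the controls. Here both exposed fish lay above both controls, with a log2 fold change of 0.54 (SE 0.46, edgeR adjusted p = 0.460). Both exposed fish were below both controls for 30.3% of all transcripts after 350–400 nm, and above them for 32.7% after 500–550 nm. In a comparison chosen after these values were seen, 500–550 nm minus 350–400 nm gave 1.16 for ADAMTS2 (SE 0.47, edgeR adjusted p = 0.178).

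In the other 50 nm wavebands the exposed fish and the controls overlapped for ADAMTS2. It had 21.1 and 32.5 CPM after 300–350 nm, 36.7 and 13.7 CPM after 400–450 nm, 18.0 and 31.8 CPM after 450–500 nm and 27.1 and 15.1 CPM after 550–600 nm, against 29.1 and 26.9 CPM in the controls. At 300–350, 400–450 and 450–500 nm 1 fish lay above both controls and 1 below them, and at 550–600 nm 1 fish lay between the controls and 1 below them. The overlap at 550–600 nm depends on the scaling. With the scaling of the 50 nm fit, 7 of the 12 exposed fish lay below both controls and 5 above them. The log2 fold changes were -0.08 (SE 0.46) after 300–350 nm, -0.19 (SE 0.46) after 400–450 nm, -0.19 (SE 0.46) after 450–500 nm and -0.44 (SE 0.46) after 550–600 nm. The edgeR adjusted p-values of these 4 lay between 0.558 and 0.944. Leaving out 1 exposed fish turned the sign at 300–350, 400–450 and 450–500 nm. The mean over the 6 wavebands was -0.17 (SE 0.35, 95% interval -0.93 to 0.60, edgeR adjusted p = 0.770), and the exact two-sided permutation test gave -0.22 with p = 0.626. Differences among the 6 wavebands were not detected (edgeR adjusted p = 0.497).

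After FL, ADAMTS2 had 23.6 and 5.47 CPM, against 29.1 and 26.9 CPM in the controls. Both FL fish were below both controls, as for 27.5% of transcripts, and FL fish 2 held the lowest ADAMTS2 level of all 28 libraries. The log2 fold change was -0.94 (SE 0.61, 95% interval -2.43 to 0.54, edgeR adjusted p = 0.445). FL fish 2 decided this value. Without FL fish 1 the log2 fold change was -2.35, and without FL fish 2 it was -0.25. Each of these values rests on 1 exposed fish. FL minus the mean of the 50 nm wavebands was -0.80 (SE 0.43, edgeR adjusted p = 0.178). Without FL fish 1 it was -2.22, again with 1 FL fish. The same FL fish 2 had the highest level of MYL2B, a myosin light chain of muscle, with 181 CPM against 41.1 CPM in FL fish 1 and 101 and 64.9 CPM in the controls. The next highest MYL2B level, 118 CPM, was in fish 1 of 500–550 nm, which held the highest ADAMTS2 level of all libraries (49.3 CPM). A relation between MYL2B and ADAMTS2 levels was not tested.

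**Figure D2:**
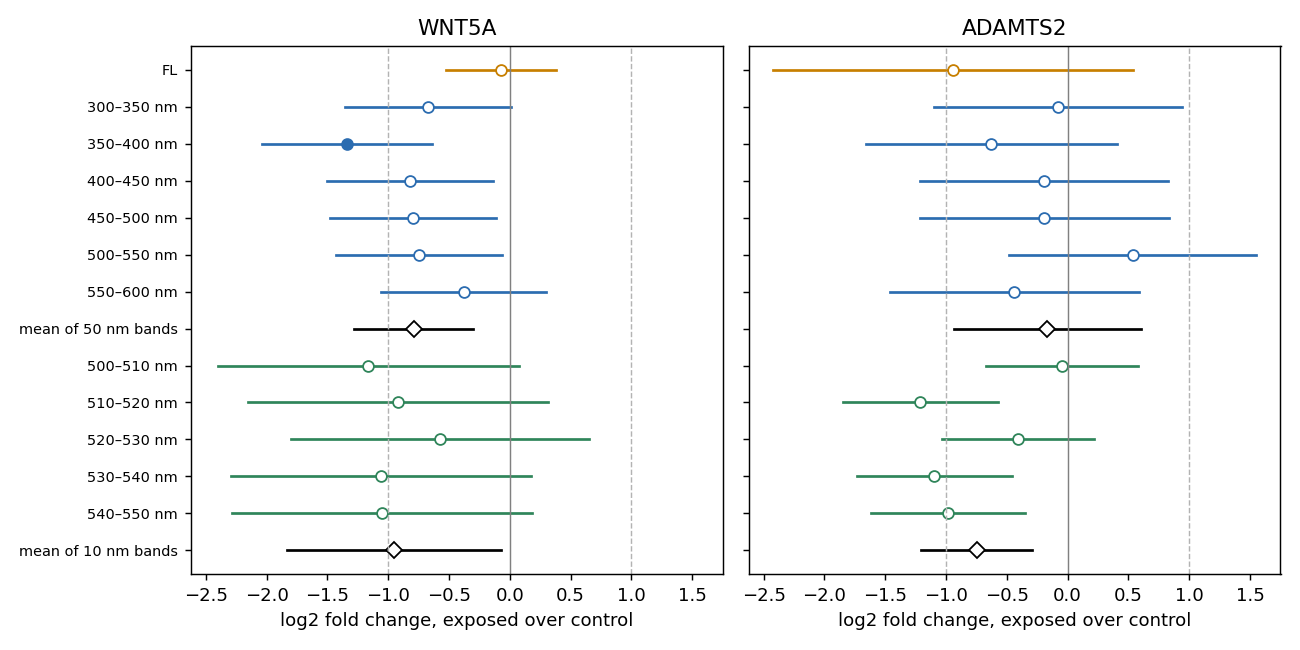
Log2 fold change of WNT5A (left) and ADAMTS2 (right), exposed over control, for each exposure and for the mean over the wavebands of each experiment (diamonds). Lines are 95% intervals from the edgeR fit, dashed lines mark a 2-fold change and filled symbols are calls. WNT5A after 350–400 nm (-1.34) is the single filled symbol, and ADAMTS2 lies at or beyond the 2-fold line after 510–520 nm (-1.21) and 530–540 nm (-1.10) without being called.

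In the 10 nm experiment ADAMTS2 levels were below those of the controls in 4 of 5 wavebands. It had 11.1 and 20.0 CPM after 510–520 nm, 17.9 and 15.8 CPM after 530–540 nm and 16.3 and 20.3 CPM after 540–550 nm, against 29.8 and 40.9 CPM in the 10 nm controls. After 520–530 nm it had 25.1 and 29.1 CPM, just below the same controls. Both exposed fish lay below both controls in these 4 wavebands, as for 27.5% to 32.4% of all transcripts. At 500–510 nm the protease had 39.2 and 30.1 CPM, within the range of the controls.

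No ADAMTS2 difference was called in the 10 nm fit. The log2 fold change was -0.05 (SE 0.28) after 500–510 nm, -1.21 (SE 0.28) after 510–520 nm, -0.41 (SE 0.28) after 520–530 nm, -1.10 (SE 0.28) after 530–540 nm and -0.98 (SE 0.28) after 540–550 nm. The edgeR adjusted p was 0.0899 after 510–520 nm, 0.272 after 530–540 nm, 0.312 after 540–550 nm, and 0.394 or more for the other wavebands. After 510–520 and 530–540 nm no transcript had a lower adjusted p in this fit. A lower unadjusted p was held by 2.17% (510–520 nm), 1.15% (530–540 nm) and 2.05% (540–550 nm) of transcripts. The 95% intervals for 510–520 nm (-1.85 to -0.57), 530–540 nm (-1.73 to -0.46) and 540–550 nm (-1.61 to -0.35) left out 0 before adjustment over the 16366 transcripts. The calls depended on the fit. DESeq2 called ADAMTS2 after 510–520 nm (-1.18, adjusted p = 0.00579) and 530–540 nm (-1.06, adjusted p = 0.0409), where it called 1018 and 190 transcripts in all. Without fish 2 of 510–520 nm the edgeR value there was -1.68, and without fish 1 it was -0.86, each resting on 1 exposed fish.

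Over the 5 wavebands of 10 nm, ADAMTS2 had a mean log2 fold change of -0.75 (SE 0.20, 95% interval -1.21 to -0.29, edgeR adjusted p = 0.0910). Leaving out 1 fish at a time gave a mean of -0.96 to -0.49. Of the 10 exposed fish, 8 lay below both controls, a count whose share over all transcripts was not computed. The exact two-sided permutation test gave -0.74 with p = 0.106. The step at 510–520 nm relative to 500–510 nm was -1.16 (SE 0.28, edgeR adjusted p = 0.457). It ran from -1.64, without fish 2 of 510–520 nm, to -0.81 when 1 fish at a time was left out. With all fish, 0% of transcripts were called at that step, and none had a lower adjusted p than ADAMTS2. Differences among the 5 wavebands were not detected after adjustment (edgeR adjusted p = 0.480, unadjusted p = 0.00867), in a test that 0% of transcripts passed.

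The same wavelengths were thus given once as a 50 nm window and once in 10 nm windows, with other fish and other controls. The control fish of both experiments did not differ detectably in either gene. WNT5A had 57.0 and 41.7 CPM in the 10 nm controls, against 34.1 and 42.0 CPM in the 50 nm controls, a log2 difference of 0.37 (SE 0.45, edgeR adjusted p = 0.592). ADAMTS2 had 29.8 and 40.9 CPM in the 10 nm controls, against 29.1 and 26.9 CPM in the 50 nm controls, a log2 difference of 0.34 (SE 0.52, edgeR adjusted p = 0.680). For comparison, 5.55% of transcripts were called lower and 3.58% higher in the 10 nm controls. The mean effect of the 10 nm wavebands minus that of 500–550 nm was -0.22 for WNT5A (SE 0.58, edgeR adjusted p = 0.825). For ADAMTS2 it was -1.29 (SE 0.65, 95% interval -2.66 to 0.08, edgeR adjusted p = 0.186), with a value of 0.54 at 500–550 nm and -0.75 over the 10 nm wavebands in the fits of each experiment. This difference was called lower for 3.76% of transcripts and higher for 5.11%. Window width, fish and experiment changed together in it and cannot be told apart. The doses that the study's methods give for the 10 nm wavebands lie on both sides of the dose at 500–550 nm.

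By mean level over fish, WNT5A was highest in the 10 nm controls (49.4 CPM), then in the 50 nm controls (38.0 CPM) and after FL (36.3 CPM), and lowest after 350–400 nm (15.4 CPM). Between these ends the group means ran from 33.6 CPM after 520–530 nm down to 22.1 CPM after 400–450 nm. ADAMTS2 was highest after 500–550 nm (41.6 CPM), then in the 10 nm controls (35.4 CPM) and after 500–510 nm (34.6 CPM), and lowest after FL (14.5 CPM), where the mean hides fish of 23.6 and 5.47 CPM. None of the steps between wavebands that adjoin in wavelength was called for either gene. At the steps of 10 nm 0% of all transcripts were called, so the missing calls there are not particular to these genes.

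No relation between the levels of both genes was detected across the 28 libraries. Pearson's r of log2 CPM was 0.15 and Spearman's rho 0.14 (permutation p = 0.444 and 0.487, adjusted over 3 relations 0.536 and 0.731). Without the pair of libraries farthest from the median of WNT5A, r was -0.05. Within the 16 libraries of FL, the 50 nm wavebands and their controls r was -0.17 and rho -0.06 (permutation p = 0.536 and 0.822, adjusted 0.536 and 0.822). Within the 12 libraries of the 10 nm experiment r was 0.57 and rho 0.36 (permutation p = 0.0527 and 0.257, adjusted 0.158 and 0.731). Without the pair farthest from the median of WNT5A, r was 0.24. That pair was fish 1 of 510–520 nm and fish 1 of the 10 nm controls. Dropping it also narrows the range of WNT5A, so the lower r does not show where a relation rests. Fish 1 of 510–520 nm held the lowest WNT5A level of all libraries (9.87 CPM) and a low ADAMTS2 level (11.1 CPM).

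**Figure D3:**
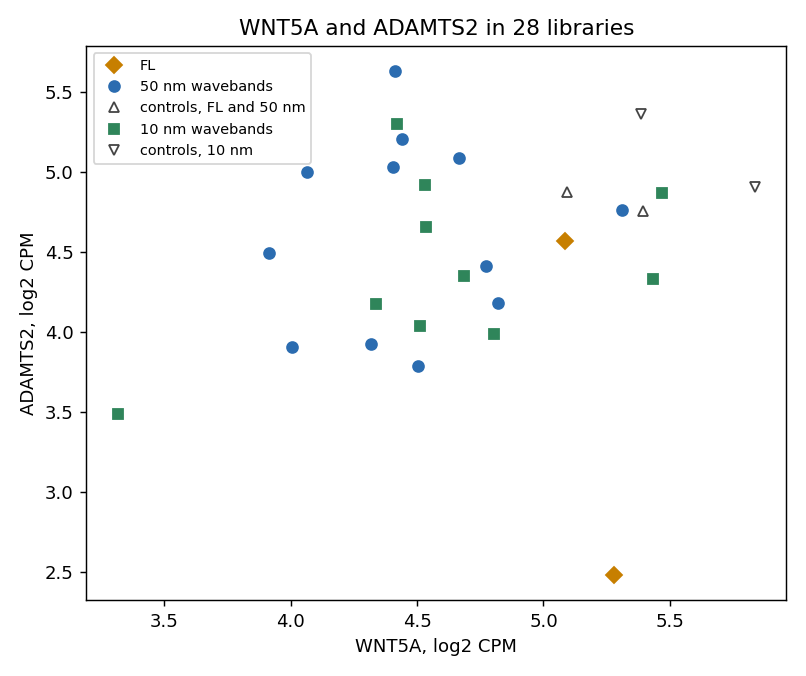
Log2 CPM of WNT5A (x axis) against ADAMTS2 (y axis) in the 28 distinct libraries, with exposures as filled symbols and controls as open triangles. The points form no line (Pearson's r 0.15), and FL fish 2 stands apart at the bottom with 5.47 CPM of ADAMTS2.

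The transcripts whose levels followed those of each gene most closely were different ones. Likeness was taken as Pearson's r of log2 CPM over 28 libraries with 16871 other transcripts, of which 82 have a name, and it is a description, since libraries share exposures, controls and depth. For WNT5A the highest values were 0.91 for ENSXMAT00000000085 and 0.90 for ENSXMAT00000005282, both without a name. Among named transcripts the highest was MAP2K1, a kinase of the ERK cascade, with 0.72 at rank 261. FOXN1, a transcription factor of epithelial differentiation, followed with 0.64 at rank 620, and PRKCB, a protein kinase C, with 0.59 at rank 1014. For ADAMTS2 the highest values were 0.89 for ENSXMAT00000001479 and 0.88 for ENSXMAT00000019388, again without a name. Its highest named transcript was PRKCA, another protein kinase C, with 0.67 at rank 182. PPAR, the panel's name for a peroxisome proliferator-activated receptor, followed with 0.55 at rank 725. PRKDC, the catalytic subunit of the DNA-dependent protein kinase, had 0.55 at rank 755. Among all transcripts ADAMTS2 held rank 6067 for WNT5A.

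Of genes listed for the calcium branch of Wnt signalling, 7 named transcripts of the study's panel could be followed. The list is not particular to Wnt signalling, and RNA levels do not show whether that branch was active. The study chose its panel targets as light responsive from its own earlier work, so their direction is not independent evidence. The 7 are the G protein subunit GNA15, the phospholipases PLCB1 and PLCH2, the inositol trisphosphate receptor ITPR3, the protein kinases PRKCA and PRKCB and the calmodulin-dependent kinase CAMK1G. All 7 were tested in all 12 exposures. GNA15 was the single one called, higher after 350–400 nm and after 550–600 nm, where 1.26% and 1.25% of transcripts were called higher. It had 37.0 and 23.3 CPM after 350–400 nm and 11.6 and 27.6 CPM after 550–600 nm, against 8.15 and 5.28 CPM in the controls. All 4 exposed fish lay above both controls. Both exposed fish were above both controls for 31.2% of all transcripts after 350–400 nm and for 30.4% after 550–600 nm. The log2 fold change of GNA15 was 2.13 after 350–400 nm (SE 0.40, edgeR adjusted p = 0.0144) and 1.55 after 550–600 nm (SE 0.40, edgeR adjusted p = 0.0287). The call at 350–400 nm was lost without control fish 2 (1.86, edgeR adjusted p = 0.121) or exposed fish 1 (1.77, edgeR adjusted p = 0.0996), and in 1 fit of all libraries (2.17, edgeR adjusted p = 0.0808). The call at 550–600 nm was lost in that fit (1.56, edgeR adjusted p = 0.187), with the exposure and its controls alone (1.57, edgeR adjusted p = 0.0959), with all 4 controls as the reference (1.55, edgeR adjusted p = 0.239), and without either control (1.89 and 1.28, edgeR adjusted p = 0.0657 and 0.202) or exposed fish 2 (0.79, edgeR adjusted p = 0.249).

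No transcript of the 7 was called lower in any exposure. After 350–400 nm, 4 of 7 had a log2 fold change below 0, with a median of -0.15 for the list and -0.02 for all transcripts. After 510–520 nm, 6 of 7 were below 0, with a median of -1.03, against 0.01 for all transcripts, and none was called. The fish of 510–520 nm were split. PLCB1, PLCH2, ITPR3, PRKCA and PRKCB were lower in fish 1 than in fish 2, such as ITPR3 with 35.6 and 105 CPM. GNA15 and CAMK1G were higher in fish 1. Below 0 were also 6 of 7 after 500–510 nm (median -0.40) and after 540–550 nm (median -0.32). The list leaned the other way after 400–450 nm, with 2 of 7 below 0 and a median of 0.25, and after 450–500 nm, with 3 of 7 below 0 and a median of 0.46, again with none called. The count table also holds a second row named PRKCB, and reads shared by near-identical rows could be split, so the PRKCB values are uncertain. Of 23 receptors, co-receptors and matrix genes sought by symbol, among them the Frizzled, ROR and collagen genes and the other procollagen N-proteinases, 0 could be matched to a transcript, so the receptors of WNT5A and the substrates of ADAMTS2 were not analysed here.

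**Figure D4:**
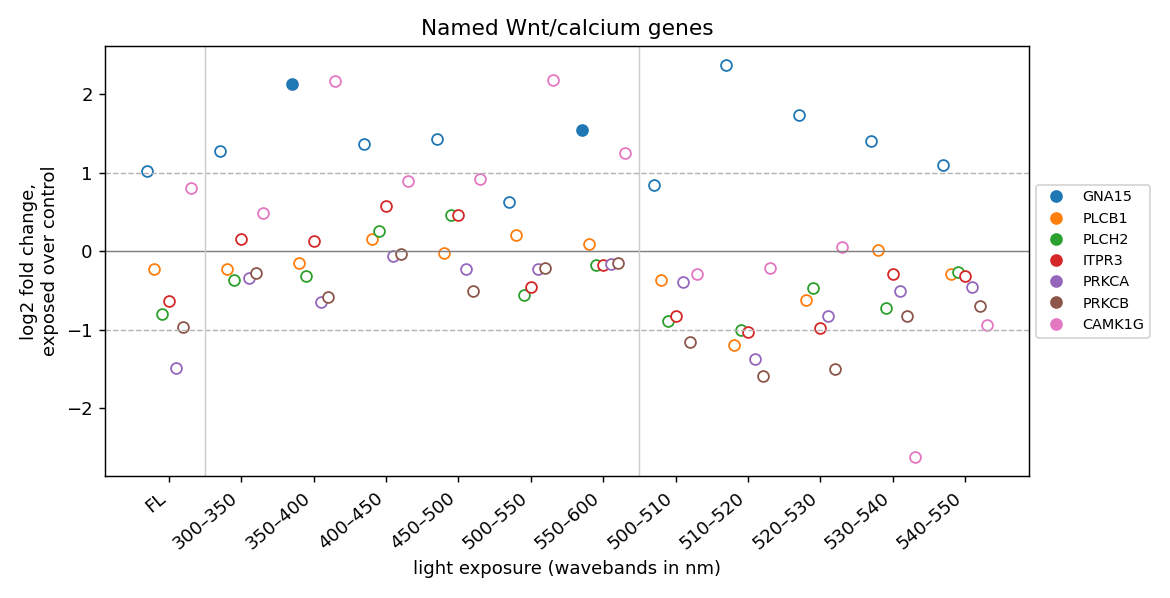
Log2 fold change, exposed over control, of the 7 named Wnt/calcium transcripts after FL, the 50 nm wavebands and the 10 nm wavebands. Filled circles are calls and dashed lines mark a 2-fold change. The filled circles are GNA15 after 350–400 nm (2.13) and 550–600 nm (1.55).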

How the data were processed

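RNA from skin of single fish was sequenced. Per the study's methods, trimmed reads were aligned by GSNAP against Ensembl cDNA sequences of the species, and the authors deposited raw counts per transcript, made with a tool the methods call xEpress, with no scaling. Its settings, on which the sharing of reads among similar transcripts depends, are not given in the sources used here. The table holds 32 columns, of which 28 are distinct. Groups and replicate numbers come from the labels, and nothing outside the labels assigned a fish to a group. The members and lists were chosen with earlier results of these data known.

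Counts were fitted with edgeR 4.0.16 in R 4.3.3 by the quasi-likelihood test, with filterByExpr and TMM scaling, in 1 fit each for FL (16513 transcripts), the 50 nm experiment (16722) and the 10 nm experiment (16366). Contrasts across experiments used 1 fit of all 28 libraries (16872). Benjamini-Hochberg adjustment ran over all transcripts of a fit, and calls needed an adjusted p below 0.05 together with a change of 2-fold or more. SE was obtained as the size of the log2 fold change over the root of F. Log2 CPM of single fish used a prior count of 2. Exact permutation tests ran over fish, and correlations used 100000 resamples (SciPy 1.17.1). The scripts were tested on simulated data.

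WNT5A and ADAMTS2 were always described, and other genes of the pathway list with their own values where called. Names come from 63 identifiers of the study's panel, all of which matched a row. The RefSeq gene table supplied pairs 0 genes with an Ensembl identifier, so no position, sequence or length is given. Alternatives were the exact test of edgeR, DESeq2 1.42.0, RLE size factors, no filter, other sets of libraries, the replicate number as a block and leaving out each fish. Same-numbered fish of different groups are not the same fish. Over 21 pairs of groups at 50 nm their deviations from the group means correlated between -0.26 and 0.32. Over 15 pairs at 10 nm they correlated between -0.02 and 0.59. The main fits did not take the numbers as pairs, and a day or batch shared by number was not tested.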

Additional observations from a re-analysis of the deposited data

Results flagged for a closer look

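The ADAMTS2 levels of a pair of 50 nm wavebands lay on opposite sides of the controls. They were 49.3 and 33.8 CPM after 500–550 nm, both above the controls, and 14.9 and 22.4 CPM after 350–400 nm, both below the same controls of 29.1 and 26.9 CPM. The difference of 500–550 nm minus 350–400 nm was 1.16 on the log2 scale (SE 0.47, edgeR unadjusted p = 0.0318, adjusted p = 0.178), in a contrast chosen after the values were seen, so the wavebands are not shown to differ. Against control, neither waveband was called, and leaving out 1 fish at a time gave 0.24 to 0.81 at 500–550 nm and -0.93 to -0.35 at 350–400 nm. Dose differed too, with 17.4 kJ/m2 at 500–550 nm and 18.6 kJ/m2 at 350–400 nm. Groups of 2 fish are too small for a search for outlying fish.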

How the results depend on the processing

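Each value was recomputed under the alternatives named above. For WNT5A and ADAMTS2, 286 of 306 recomputed values kept their sign and their side of the threshold when no single fish was left out, and 299 of 332 did so when 1 was. The cause of the changes below was not tested unless the alternative's own construction shows it. The call of WNT5A after 350–400 nm was lost in 1 fit of all distinct libraries (-1.30, edgeR adjusted p = 0.100) and with all 4 control libraries as the reference (-1.50, edgeR adjusted p = 0.0526). ADAMTS2 after 500–510 nm changed sign with all 4 controls (0.13).

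Calls appeared in the 10 nm experiment. With the exposure and its controls alone, WNT5A was called after 500–510 nm (-1.13), 530–540 nm (-1.03) and 540–550 nm (-1.03), and ADAMTS2 after 530–540 nm (-1.07). The exact test of edgeR gave the same values to that precision, -1.13, -1.03 and -1.03 for WNT5A and -1.07 for ADAMTS2, and called them too. DESeq2 called ADAMTS2 after 510–520 nm (-1.18) and 530–540 nm (-1.06). Without the 4 fish of 510–520 and 520–530 nm (picked once the data had been seen), WNT5A was called after 500–510 nm (-1.15), 530–540 nm (-1.04) and 540–550 nm (-1.04) and for the mean of these 3 wavebands (-1.07), and ADAMTS2 after 530–540 nm (-1.08). Those fish were split in WNT5A, so a smaller WNT5A spread was built in there. The main fit itself decided how many transcripts were called. After 530–540 nm it called 0, against 1184 by the exact test, 1018 with the exposure and its controls alone and 190 by DESeq2, and after FL it called 0, against 446 in 1 fit of all libraries and 306 with all 4 controls.

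With the replicate number as a block, ADAMTS2 was called after 510–520 nm (-1.22, edgeR adjusted p = 0.0357, with 815 transcripts called in place of 0), and WNT5A at 450–500 nm minus 400–450 nm changed sign (-0.0048). The block changed no other call of WNT5A or ADAMTS2. Same-numbered FL and control fish deviated in opposite directions (correlation -0.24), and crossing the numbers of the FL fish, chosen after the data were seen, gave 358 called transcripts in place of 0. The numbers mark different fish, so these fits show no pairing.

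Leaving out 1 fish at a time gained calls as well as losing them, each gain with 1 fish left in a group. The log2 fold changes against control moved over these ranges, in which the sign or the call changed. For WNT5A they were -0.21 to 0.082 after FL, -1.49 to -1.17 after 350–400 nm (call lost each time), -0.95 to 0.056 after 550–600 nm, -2.33 to -0.22 after 510–520 nm and -1.23 to -0.72 for the mean of the 10 nm wavebands. For ADAMTS2 they were -2.35 to -0.25 after FL, -0.42 to 0.20 after 300–350 nm, -1.06 to 0.34 after 400–450 nm, -0.65 to 0.17 after 450–500 nm, -0.26 to 0.21 after 500–510 nm and -1.68 to -0.86 after 510–520 nm. The ranges in which neither the sign nor the call changed were, for WNT5A, -0.87 to -0.50 (300–350 nm), -0.97 to -0.65 (400–450 nm), -1.21 to -0.45 (450–500 nm), -0.90 to -0.58 (500–550 nm), -1.36 to -0.93 (500–510 nm), -1.10 to -0.19 (520–530 nm), -1.31 to -0.83 (530–540 nm) and -1.25 to -0.82 (540–550 nm), and for ADAMTS2 -0.93 to -0.35 (350–400 nm), 0.24 to 0.81 (500–550 nm), -0.91 to -0.052 (550–600 nm), -0.62 to -0.15 (520–530 nm), -1.31 to -0.84 (530–540 nm) and -1.19 to -0.72 (540–550 nm). FL minus the mean of the 50 nm wavebands ran from -2.22 to -0.10 for ADAMTS2. Among neighbouring wavebands, each minus the next shorter one, WNT5A ran from -0.39 to 0.35 at 450–500 nm, -0.28 to 0.46 at 500–550 nm, -0.21 to 0.78 at 550–600 nm, -1.16 to 0.94 at 510–520 nm, -0.35 to 1.75 at 520–530 nm, -0.87 to 0.043 at 530–540 nm and -0.20 to 0.26 at 540–550 nm. ADAMTS2 ran from -0.43 to 0.97 at 400–450 nm, -0.53 to 0.87 at 450–500 nm, -1.64 to -0.81 at 510–520 nm and -0.037 to 0.26 at 540–550 nm. Where an arm is left with 1 fish, that fish is assumed to vary like the other groups.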
